A study of Mus musculus with 9 samples.

Results

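The immediate early and growth arrest genes described here are Fos, Jun, Junb, Egr1, Atf3, Cdkn1a, Ier2, Ier3, Myc and Btg2. All probe sets annotated to these 10 genes were taken, which gave 16 of the 12422 probe sets that were not controls. RNA of the gastrocnemius, a muscle of the calf, from each of 9 mice was hybridised to its own Affymetrix U74Av2 array. The mdx x utrn-/- group (1 mouse, 5 weeks old) lacks both dystrophin, through the mdx mutation in Dmd, and utrophin, its relative at the muscle membrane. The mdx group (2 mice, 15 and 13 weeks) lacks full-length mouse dystrophin only. The hDMD x mdx x utrn-/- group (1 mouse, 9 weeks) has both deficiencies and carries the hDMD transgene, the full-length human dystrophin gene. The hDMD x mdx group (2 mice, 24 and 10 weeks) carries the human gene on the mdx mutation. The hDMD group (1 mouse, 11 weeks) carries the human gene beside the mouse one, and the wild-type group (2 mice, C57Bl/DBA2/129OLA-Ev, both 7 weeks) carries neither change. All mice were male except wild-type 1. Only the wild-type labels name a strain, the promoter of the transgene is not given, and with 1 mouse a genotype's own spread is unknown. Age and genotype cannot be told apart for the single mice. No genotype shared an age with another, so age and genotype are mixed in the other comparisons too. Among these is mdx (15 and 13 weeks) against wild-type (7 weeks).

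Immediate early genes are transcribed within minutes of a stimulus, from factors already present in the cell, and need no new protein synthesis. Fos, Jun and Junb encode subunits of the AP-1 transcription factor, and Egr1, Atf3 and Myc encode other early transcription factors. In muscle such genes are known to respond to contraction, stretch and injury. Cdkn1a encodes a cyclin-dependent kinase inhibitor that p53 and MyoD induce, and it accompanies the withdrawal of myoblasts from the cell cycle during regeneration. Btg2 encodes an antiproliferative protein, also a p53 target.

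The promoters of 5 of the genes are printed because Fos, Junb, Atf3 and Btg2 stood highest in the same mouse, and Cdkn1a had the largest differences between genotypes. Each window runs 5′ to 3′ on the gene's strand from 250 bases before to 50 bases after the annotated start, from RefSeq on build GRCm38.p6, and 7 of the 10 genes had a window that could be shown. Capitals mark matches, on either strand, to the cyclic AMP response element TGACGTCA, its core TGACG, the AP-1 site TGACTCA, the TATA box TATAAA, the CArG box and the p53 decamer. The full element contains the core, on both strands.
Cdkn1a, upstream start, chr17:29090729-29091028, plus strand: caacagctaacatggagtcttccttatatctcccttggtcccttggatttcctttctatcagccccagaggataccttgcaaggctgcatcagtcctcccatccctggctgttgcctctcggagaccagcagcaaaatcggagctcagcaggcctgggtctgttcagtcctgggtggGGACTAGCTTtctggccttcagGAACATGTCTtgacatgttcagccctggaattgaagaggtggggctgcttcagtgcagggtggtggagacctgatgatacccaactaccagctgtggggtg
Fos, chr12:85473640-85473939, plus strand: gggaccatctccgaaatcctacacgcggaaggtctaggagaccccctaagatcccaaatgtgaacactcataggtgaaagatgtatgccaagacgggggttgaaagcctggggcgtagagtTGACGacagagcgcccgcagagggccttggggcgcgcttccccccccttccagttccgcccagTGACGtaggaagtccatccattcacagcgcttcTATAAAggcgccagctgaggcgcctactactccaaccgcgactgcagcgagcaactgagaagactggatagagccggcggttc
Junb, chr8:84978699-84978998, minus strand: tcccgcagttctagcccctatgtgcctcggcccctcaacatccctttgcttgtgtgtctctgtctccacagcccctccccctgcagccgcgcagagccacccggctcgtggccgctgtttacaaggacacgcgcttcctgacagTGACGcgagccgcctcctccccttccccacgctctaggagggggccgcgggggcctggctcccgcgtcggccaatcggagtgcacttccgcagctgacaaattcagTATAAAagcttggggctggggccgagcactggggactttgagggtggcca
Atf3, chr1:191183284-191183583, minus strand: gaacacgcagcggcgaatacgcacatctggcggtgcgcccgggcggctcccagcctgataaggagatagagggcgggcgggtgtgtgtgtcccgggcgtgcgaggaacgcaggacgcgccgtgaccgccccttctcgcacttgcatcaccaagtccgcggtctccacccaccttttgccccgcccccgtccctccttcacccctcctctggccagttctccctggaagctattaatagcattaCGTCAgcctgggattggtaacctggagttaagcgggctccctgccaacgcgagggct
Btg2, chr1:134079106-134079405, minus strand: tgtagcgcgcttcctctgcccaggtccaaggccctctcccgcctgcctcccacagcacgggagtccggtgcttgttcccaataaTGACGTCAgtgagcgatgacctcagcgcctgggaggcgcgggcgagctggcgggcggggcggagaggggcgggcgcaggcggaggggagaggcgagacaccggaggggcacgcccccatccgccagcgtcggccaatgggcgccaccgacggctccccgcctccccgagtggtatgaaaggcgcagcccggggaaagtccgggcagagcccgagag
Of 32851 promoter windows of this length, 1.79% held TGACGTCA, 20.8% TGACG, 5.20% TGACTCA, 13.6% TATAAA, 1.63% a CArG box and 8.36% a p53 decamer. The Cdkn1a window held 2 p53 decamers, at bases 178 to 187 and 200 to 209. Fos held TGACG at bases 122 and 185 and TATAAA at base 218, and Junb held TGACG at base 145 and TATAAA at base 251. Atf3 held TGACG on the minus strand of its window, at bases 244 to 248. Btg2 held the full element at bases 85 to 92. The windows of Jun and Ier3 and a second window of Cdkn1a held none of the motifs searched. These matches are a description of the letters and say nothing about binding in these muscles.

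Values below are log2(intensity + 16) after quantile normalisation between arrays, so 4 is the floor that an intensity at or below 0 receives, and differences understate the change of dim genes. Arrays mdx 2, hDMD x mdx 1 and wild-type 1 were 6.18 times as bright as the other 6 by their hybridisation controls and are called bright. They fall in 3 genotypes, so each comparison is also given within bright and within dim arrays where both groups had such arrays. The skeletal muscle label matched the markers: Acta1, skeletal actin, lay between 11.73 and 11.89 and Ckm, muscle creatine kinase, between 9.87 and 10.86 in all 9 arrays. Of the 16 probe sets, 12, for 9 genes, had a mean above the 40th percentile (4.46) and entered the tests. Myc (104712_at), 161716_at of Fos, 161802_i_at of Egr1 and 161645_r_at of Atf3 did not.

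Of the AP-1 subunits, Fos and Junb stood highest in the mdx x utrn-/- muscle, whereas Jun was highest in a wild-type mouse. Fos (160901_at) read 7.02 in the mdx x utrn-/- mouse and 5.17 and 5.38 in the mdx mice, against 4.69 in the hDMD x mdx x utrn-/- mouse, 5.29 and 5.68 in the hDMD x mdx mice, 5.09 in the hDMD mouse and 5.97 and 4.97 in the wild-type mice. Apart from the mdx x utrn-/- mouse, all arrays lay within the range of the wild-type pair or below it. Jun (100130_at) read 5.57 in the mdx x utrn-/- mouse and 5.03 and 5.49 in the mdx mice, against 4.85 in the hDMD x mdx x utrn-/- mouse, 5.998 and 5.56 in the hDMD x mdx mice, 5.26 in the hDMD mouse and 6.92 and 5.28 in the wild-type mice. The highest array was wild-type 1, a bright array, and bright arrays exceeded their dim partners in all 3 genotypes with 2 mice, by 0.46 in mdx, 0.44 in hDMD x mdx and 1.64 in wild-type.

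Junb was measured by a pair of probe sets from the same sequence record. Junb 102362_i_at read 6.24 in the mdx x utrn-/- mouse and 4.83 and 5.09 in the mdx mice, against 4 in the hDMD x mdx x utrn-/- mouse, 4.68 and 4 in the hDMD x mdx mice, 4.65 in the hDMD mouse and 4.76 and 4.92 in the wild-type mice. The hDMD x mdx x utrn-/- mouse and 1 hDMD x mdx mouse lay at the floor. The mice without full-length dystrophin had 6.16 (mdx x utrn-/-) and 4 and 4.67 (mdx) for Junb 102363_r_at, against 4 (hDMD x mdx x utrn-/-), 4.17 and 4 (hDMD x mdx), 4.68 (hDMD) and 5.36 and 4 (wild-type). Here 4 arrays were at the floor, and the pair correlated with r = 0.78 over the 9 arrays. In both, the mdx x utrn-/- mouse was highest, and on 102363_r_at wild-type 1 came next.

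Egr1, a zinc finger factor induced by growth signals, and Atf3, a stress-induced repressor of the CREB and ATF family, were also highest in the mdx x utrn-/- muscle. Egr1 (98579_at) read 6.39 in the mdx x utrn-/- mouse and 5.74 and 5.90 in the mdx mice, against 4.55 in the hDMD x mdx x utrn-/- mouse, 4.61 and 5.68 in the hDMD x mdx mice, 4.83 in the hDMD mouse and 6.21 and 4.71 in the wild-type mice. The 3 mice without full-length dystrophin lay between 5.74 and 6.39, above all but wild-type 1 among the 6 carriers. The mice without full-length dystrophin had 6.54 (mdx x utrn-/-) and 5.61 and 5.67 (mdx) for Atf3 104155_f_at, against 5.12 (hDMD x mdx x utrn-/-), 5.71 and 5.73 (hDMD x mdx), 5.26 (hDMD) and 5.28 and 5.01 (wild-type). Atf3 104156_r_at read 6.09 in the mdx x utrn-/- mouse and 4.87 and 4.46 in the mdx mice, against 4 in the hDMD x mdx x utrn-/- mouse, 4.21 and 4.83 in the hDMD x mdx mice, 4.24 in the hDMD mouse and 4.43 and 4.36 in the wild-type mice. The Atf3 pair correlated with r = 0.87 over the 9 arrays, and in both the mdx x utrn-/- mouse was highest, above arrays between 5.01 and 5.73 on 104155_f_at and between 4 and 4.87 on 104156_r_at. The suffix f marks probes shared within a sequence family, so 104155_f_at may read relatives of Atf3 too.

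Myc, which drives growth and ribosome production, was near the floor throughout. Myc (104712_at) read 4.73 in the mdx x utrn-/- mouse and 4.18 and 4.02 in the mdx mice, against 4 in the hDMD x mdx x utrn-/- mouse, 4.31 and 4.44 in the hDMD x mdx mice, 4.05 in the hDMD mouse and 4.05 and 4.37 in the wild-type mice. The mdx x utrn-/- mouse was again the highest, but the probe set was too dim to be tested. The other probe sets left out were flat: Fos 161716_at lay between 4 and 4.14, Egr1 161802_i_at between 4 and 4.35, and Atf3 161645_r_at at 4 in all 9 arrays.

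Cdkn1a was the member with the widest range between genotypes, and its probe sets differed in which arrays stood out. Cdkn1a 94881_at read 6.83 in the mdx x utrn-/- mouse and 7.16 and 6.71 in the mdx mice, against 4 in the hDMD x mdx x utrn-/- mouse, 5.21 and 4.32 in the hDMD x mdx mice, 5.72 in the hDMD mouse and 7.35 and 4.38 in the wild-type mice. The 3 mice without full-length dystrophin lay close together, and of the 6 carriers only wild-type 1 reached them. The mice without full-length dystrophin had 8.52 (mdx x utrn-/-) and 8.57 and 6.38 (mdx) for Cdkn1a 98067_at, against 6.60 (hDMD x mdx x utrn-/-), 4.51 and 6.82 (hDMD x mdx), 6.39 (hDMD) and 6.20 and 6.38 (wild-type). On this probe set mdx 2 sat with the wild-type mice and hDMD x mdx 1 was lowest, and both are bright arrays. Bright arrays read lower than their dim partners in all 3 genotypes with 2 mice. Bright minus dim was -2.19 in mdx, -2.31 in hDMD x mdx and -0.17 in wild-type. The 2 probe sets correlated with r = 0.39 over the 9 arrays. By genotype mean, 94881_at ran mdx, mdx x utrn-/-, wild-type, hDMD, hDMD x mdx and hDMD x mdx x utrn-/-, and 98067_at ran mdx x utrn-/-, mdx, hDMD x mdx x utrn-/-, hDMD, wild-type and hDMD x mdx. The wild-type range on 94881_at and the mdx and hDMD x mdx ranges on 98067_at were each wide enough to cover their neighbours in that order.

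Btg2 and Ier2 followed Fos across the arrays, and Ier3 did not. Btg2 (101583_at) read 7.77 in the mdx x utrn-/- mouse and 6.27 and 6.92 in the mdx mice, against 6.75 in the hDMD x mdx x utrn-/- mouse, 6.54 and 7.28 in the hDMD x mdx mice, 6.47 in the hDMD mouse and 7.14 and 6.69 in the wild-type mice. Apart from the mdx x utrn-/- mouse, the genotypes spanned 6.27 to 7.28 and overlapped. Ier2 (99109_at), a nuclear early response protein, read 5.99 in the mdx x utrn-/- mouse and 5.04 and 5.31 in the mdx mice, against 4.66 in the hDMD x mdx x utrn-/- mouse, 5.34 and 5.45 in the hDMD x mdx mice, 4.59 in the hDMD mouse and 5.84 and 5.28 in the wild-type mice. The mdx x utrn-/- mouse was highest, only slightly above wild-type 1. Ier3 (94384_at), a stress-inducible regulator of cell survival, read 7.05 in the mdx x utrn-/- mouse and 7.503 and 5.37 in the mdx mice, against 6.34 in the hDMD x mdx x utrn-/- mouse, 5.58 and 6.03 in the hDMD x mdx mice, 7.61 in the hDMD mouse and 6.48 and 5.89 in the wild-type mice. The hDMD, mdx 1 and mdx x utrn-/- arrays were the high ones for Ier3, and the mdx pair differed by more than the genotypes did.

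**Figure D1:**
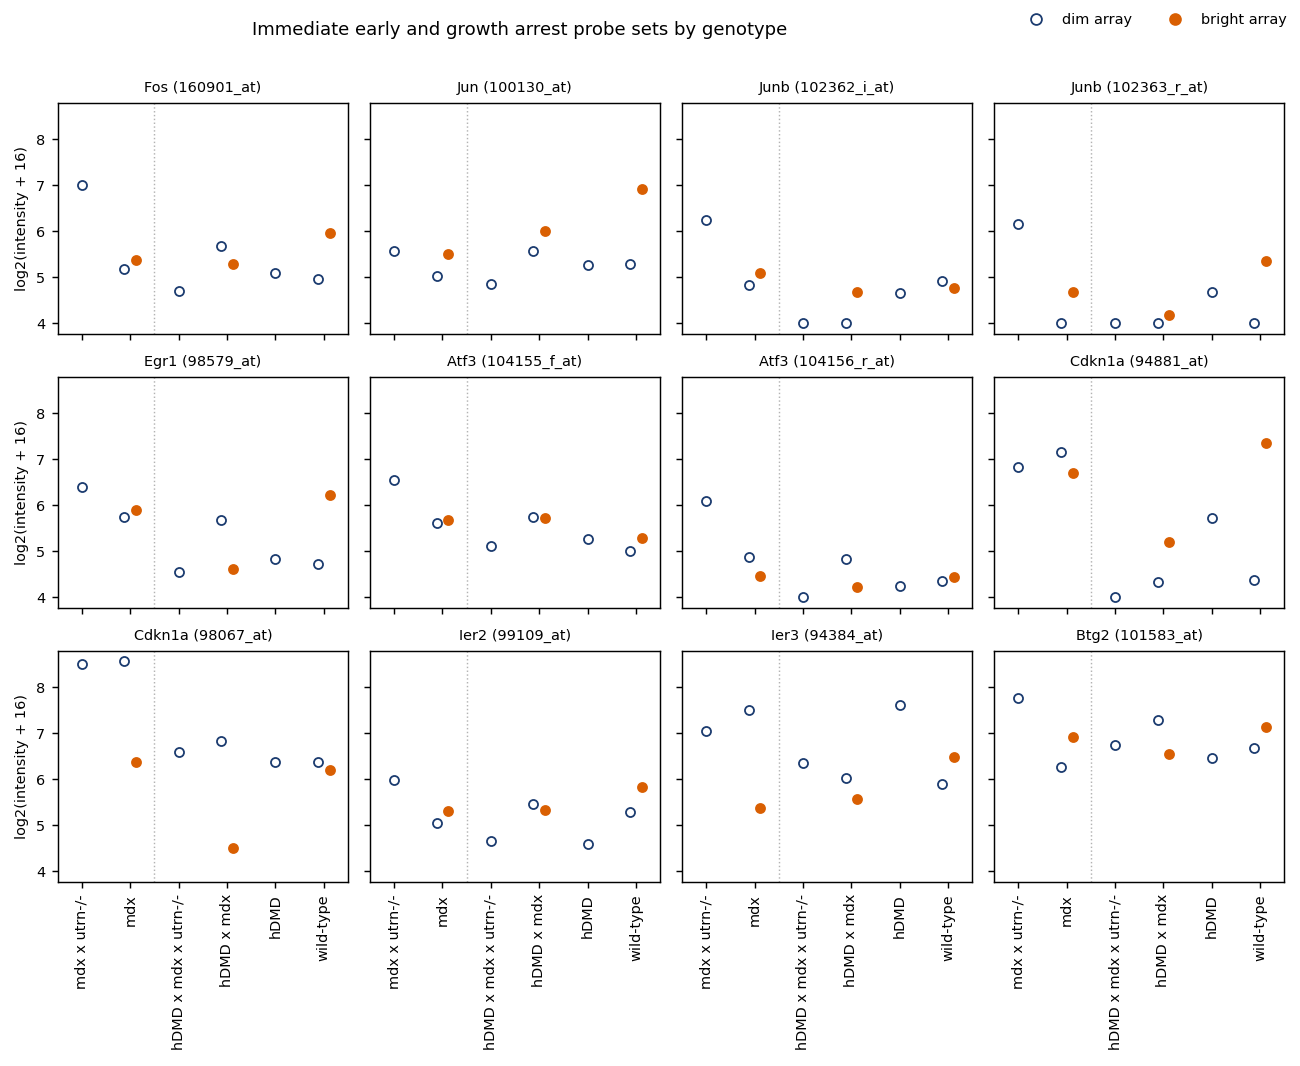
Normalised intensity, as log2(intensity + 16), of the 12 probe sets tested, with 1 point per mouse and genotypes along the horizontal axis; filled points are bright arrays, and the dotted line divides mice without full-length dystrophin (left) from carriers (right). The mdx x utrn-/- mouse is the highest point in 8 of the 12 panels, and Cdkn1a 94881_at is above 6.70 in the 3 mice on the left and in wild-type 1.

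Seen by array, the members stood together at opposite ends in the pair of utrophin-deficient mice. In the mdx x utrn-/- muscle 8 of the 12 probe sets had their highest value, where 11.5% of all 7453 probe sets tested did. Every one of the 9 genes tested was above its own mean there, with a median deviation of 0.99, against -0.01 over all probe sets. In the hDMD x mdx x utrn-/- muscle none of the 9 genes was above its own mean, and the median deviation was -0.62. Among the other arrays the medians ran from -0.33 in wild-type 2 to 0.27 in wild-type 1, the next highest array. Among the 6 dim arrays alone, 9 of the 12 were highest in the mdx x utrn-/- mouse, against 17.3% of all probe sets. Of the 12, Junb 102363_r_at and Atf3 104156_r_at had means of 4.56 and 4.61 over the 9 arrays but 4.36 and 4.43 without the mdx x utrn-/- mouse, against the filter's cut of 4.46. With the filter taken over the 7 arrays other than the utrophin-deficient pair, a choice made after the values were seen, all but Junb 102363_r_at were kept and 7 of these 11 were highest in the mdx x utrn-/- mouse, against 10.8% of all probe sets. Without normalisation, 1 of the 12 was highest there, against 0.309% of all probe sets. By genotype mean the mdx x utrn-/- mouse came first for Fos, Junb, Egr1, Atf3, Cdkn1a 98067_at, Ier2 and Btg2, and the hDMD x mdx x utrn-/- mouse last for Fos, Jun, Junb, Egr1, Atf3 and Cdkn1a 94881_at. Between those ends mdx, hDMD x mdx and wild-type changed places from gene to gene, and neighbouring pairs of mice overlapped in that order for Fos, Egr1 and Btg2.

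**Figure D2:**
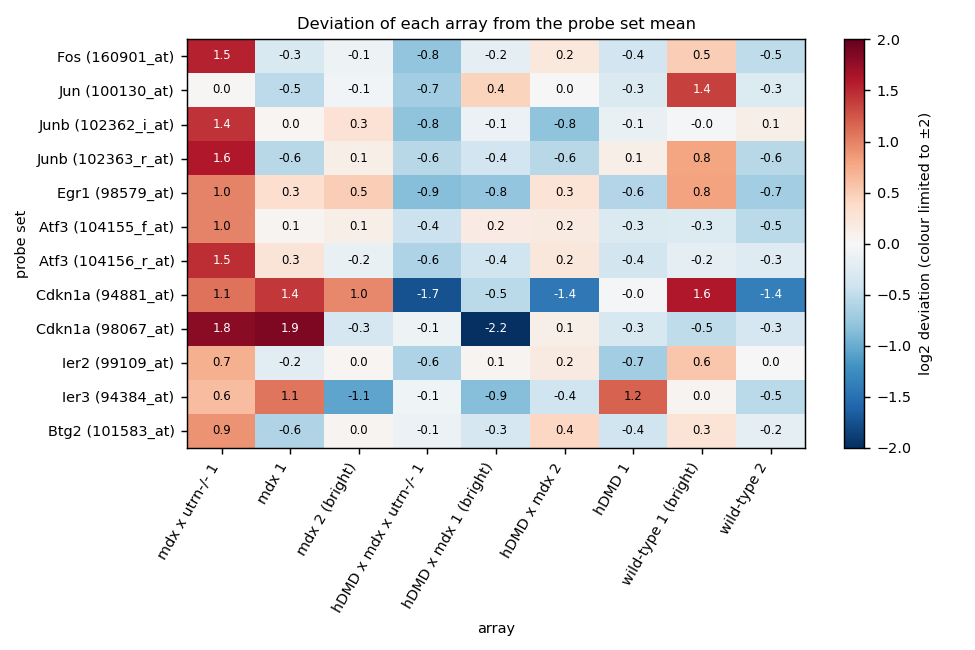
Deviation of each array (columns) from the mean of each probe set (rows) over the 9 arrays, on the log2 scale, with colour limited to 2 units either way. The mdx x utrn-/- column is at or above 0 in every row, with a median over genes of 0.99, and the hDMD x mdx x utrn-/- column is below 0 in every row.

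Setting these 2 mice against each other asks what the human gene does where both proteins are missing, but each genotype had 1 mouse, so the difference has no replicate check and no test. All 12 probe sets were lower in the hDMD x mdx x utrn-/- mouse, with differences of -0.71 for Ier3 to -2.83 for Cdkn1a 94881_at, and a median of -1.88. Over all 7453 probe sets the median difference was 0.0042 and 49.2% were lower. Lower by more than 1 were 10 of the 12 probe sets, against 10.1% of all probe sets. With the filter over the other 7 arrays, 9 of 11 were lower by more than 1, against 9.83% of all, and the median was -1.84. Junb on both probe sets, Atf3 104156_r_at and Cdkn1a 94881_at lay at the floor in the hDMD x mdx x utrn-/- mouse, so their differences depend on the pseudocount. The others included Fos at -2.33, Cdkn1a 98067_at at -1.91, Egr1 at -1.84, Atf3 104155_f_at at -1.42 and Btg2 at -1.03. With pseudocounts of 1 and 64 the median became -2.63 and -0.87, and without normalisation -0.87, with all 12 lower each time. Without normalisation 79% of all probe sets were lower too, with a median of -0.23. In that setting 4 of the 12 member probe sets were lower by more than 1. With a pseudocount of 64, 3 of the 12 were. The mice were 9 and 5 weeks old, and age and genotype cannot be told apart.

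The summed neutrophil and regenerating muscle markers were highest in the mdx x utrn-/- array, whereas the summed macrophage, fibroblast and lymphocyte markers were not. The 10 neutrophil markers summed to 2678 units of normalised intensity there, against 107 and 259 in mdx and 76.5 to 376 in the 6 carriers. S100a8, a neutrophil calcium-binding protein, read 9.08 in that mouse and 4 to 5.74 elsewhere. The 10 markers of regenerating muscle summed to 2745 in mdx x utrn-/- and 1227 and 1828 in mdx, against 269 to 611 in the carriers, and Myl4, an embryonic myosin light chain, read 8.05, 8.66 and 8.26 in the mice without full-length dystrophin, against 5.38 to 6.34. Among them, Myl4 (differences of 2.44 and 3.18 on its probe sets, limma adjusted p = 0.00344 and 6.08e-05) and Myh3, embryonic myosin heavy chain, named after its value was seen (2.24, limma adjusted p = 0.0203), passed between these classes. The 23 macrophage markers summed to 1308 in mdx x utrn-/- and 2577 and 1685 in mdx, against 389 to 577 in 5 carriers and 1957 in wild-type 2. Lyz2, lysozyme, read 7.16 to 7.87 in the mice without full-length dystrophin, against 4 to 7.24. The 10 fibroblast and matrix markers summed to 3254 in mdx x utrn-/- and 4102 and 4091 in mdx, against 3629 and 5668 in wild-type. The 9 lymphocyte markers summed to 199 in mdx x utrn-/- and 232 and 232 in mdx, against 164 to 698 in the carriers. The 14 muscle fibre markers summed to 24173 to 28144. Quantile normalisation gives the brightest probe sets nearly the same values in every array, and Acta1 took only values of 11.73, 11.82 and 11.89. The narrow range of this sum is therefore partly set by the normalisation and says little about fibre content. None of the defining markers named was at the floor in every array, and the part of these cells in the members' levels was not tested. In whole muscle, fewer cells of a type and less RNA per cell cannot be told apart.

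**Figure D3:**
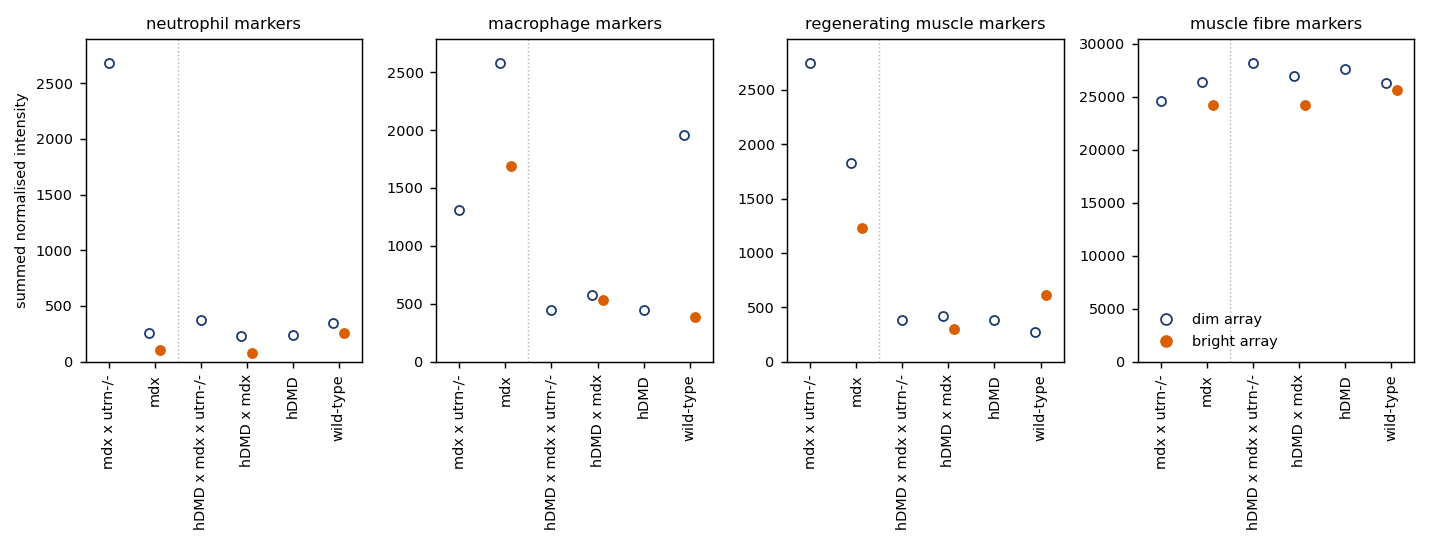
Summed normalised intensity (linear units, each vertical axis from 0) of 4 fixed marker lists, with 1 point per mouse, genotypes along the horizontal axis and bright arrays filled. The neutrophil sum is 2678 in the mdx x utrn-/- mouse and at most 376 elsewhere, and the regenerating muscle sum is 1227 to 2745 in the 3 mice without full-length dystrophin and at most 611 in the others.

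The 3 mice without full-length dystrophin (mdx x utrn-/- and mdx) were then compared with the 6 that carry it (hDMD x mdx x utrn-/-, hDMD x mdx, hDMD and wild-type). Of the 12 member probe sets, 11 had a higher mean without full-length dystrophin, against 48.2% of all probe sets, and Jun a lower one. None passed the test, limma's moderated test with Benjamini-Hochberg adjustment over 7453 probe sets, in which 0.121% of all probe sets passed at 0.05, all higher. At an unadjusted p under 0.05 stood 5 of the 12 member probe sets, against 5.58% of all probe sets. They included both probe sets of Cdkn1a. Atf3 104156_r_at was also among these 5, and its mean without the mdx x utrn-/- mouse, 4.43, lay below the filter's cut of 4.46. So did that of Junb 102363_r_at, 4.36, which was among the 11 higher. With 1 probe set per gene, 3 of 9 genes stood at an unadjusted p under 0.05. The count of probe sets was 1 of 12 without the mdx x utrn-/- mouse and likewise without normalisation. It was 3 of 12 without a filter or without the hDMD x mdx x utrn-/- mouse, the hDMD mouse or wild-type 2. The 3' to 5' ratio of the actin controls, a sign of RNA quality, was 0.908, 0.894 and 1.87 (bright) without full-length dystrophin, against 0.669 to 0.759 in dim and 1.20 and 1.29 in bright carrier arrays, and its part in the differences was not tested. Without full-length dystrophin, 10 of 10 fibroblast and matrix markers (median 0.49) and 10 of 10 markers of regenerating muscle (0.98) had a higher mean. So did 18 of 18 macrophage markers (0.96) and 8 of 9 neutrophil markers (0.74), while 5 of 5 lymphocyte markers had a lower one (-0.50). Between mdx and wild-type alone, 5 fibroblast and matrix markers were higher and 5 lower (median -0.02). Between hDMD and wild-type, 10 of 10 of them were lower (-0.74). The neutrophil markers turned round between mdx and wild-type alone, with 9 of 9 lower in mdx (-0.56). There 15 of 18 macrophage markers (0.88) and 10 of 10 markers of regenerating muscle (0.75) were higher in mdx. The part of these cells was not tested either. No member separated the 2 classes without overlap, which 1.52% of all probe sets did upward.

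The differences of the growth arrest gene Cdkn1a were the widest of these. Its 94881_at averaged 6.90 ± 0.23 in mice without full-length dystrophin (SD, n = 3) and 5.16 ± 1.25 in carriers (SD, n = 6), a difference of 1.74 ± 0.61 (SE, limma adjusted p = 0.738). Within bright arrays the difference was 0.43 and within dim arrays 2.39, and without wild-type 1 it was 2.18 ± 0.38 (limma adjusted p = 0.0508). It was 0.80 ± 0.95 without normalisation, 0.895 ± 0.33 with a pseudocount of 64 and 3.08 ± 1.34 with a pseudocount of 1. Its 98067_at averaged 7.82 ± 1.25 and 6.15 ± 0.83 in the same classes (SD, n = 3 and 6), a difference of 1.67 ± 0.56 (limma adjusted p = 0.738), with 1.02 in bright and 1.996 in dim arrays. With brightness as a block, 98067_at had an SE of 0.34 and did not pass (limma adjusted p = 0.143). Fitted on the 6 dim arrays alone, 98067_at passed, at 1.996 ± 0.25 (limma adjusted p = 0.0365), from 2 mice against 4. In that fit 0.107% of all probe sets passed.

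Among the transcription factors the differences were smaller and rested on the mdx x utrn-/- mouse to varying degrees. Egr1 averaged 6.01 ± 0.34 without full-length dystrophin and 5.10 ± 0.68 with it (SD, n = 3 and 6), a difference of 0.91 ± 0.38, with 0.49 in bright and 1.13 in dim arrays. Junb 102362_i_at differed by 0.88 ± 0.34 and 102363_r_at by 0.58 ± 0.45, and Atf3 by 0.79 ± 0.33 on 104156_r_at and 0.59 ± 0.27 on 104155_f_at. Fos differed by 0.57 ± 0.41, Ier3 by 0.32 ± 0.50, Ier2 by 0.26 ± 0.32, Btg2 by 0.18 ± 0.32 and Jun by -0.28 ± 0.39. Without the mdx x utrn-/- mouse, Fos became -0.01, Junb 102363_r_at -0.03, Ier2 -0.01 and Btg2 -0.22, while Atf3 104156_r_at came to 0.32, Atf3 104155_f_at to 0.29 and Junb 102362_i_at to 0.46. Without mdx 1, Ier3 became -0.11. Within bright arrays Fos, Jun, Junb 102363_r_at, Ier2 and Ier3 were lower without full-length dystrophin, from -0.96 for Jun to -0.09 for Junb. The median over the 9 genes was 0.57, with 0.08 in bright and 0.81 in dim arrays.

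**Figure D4:**
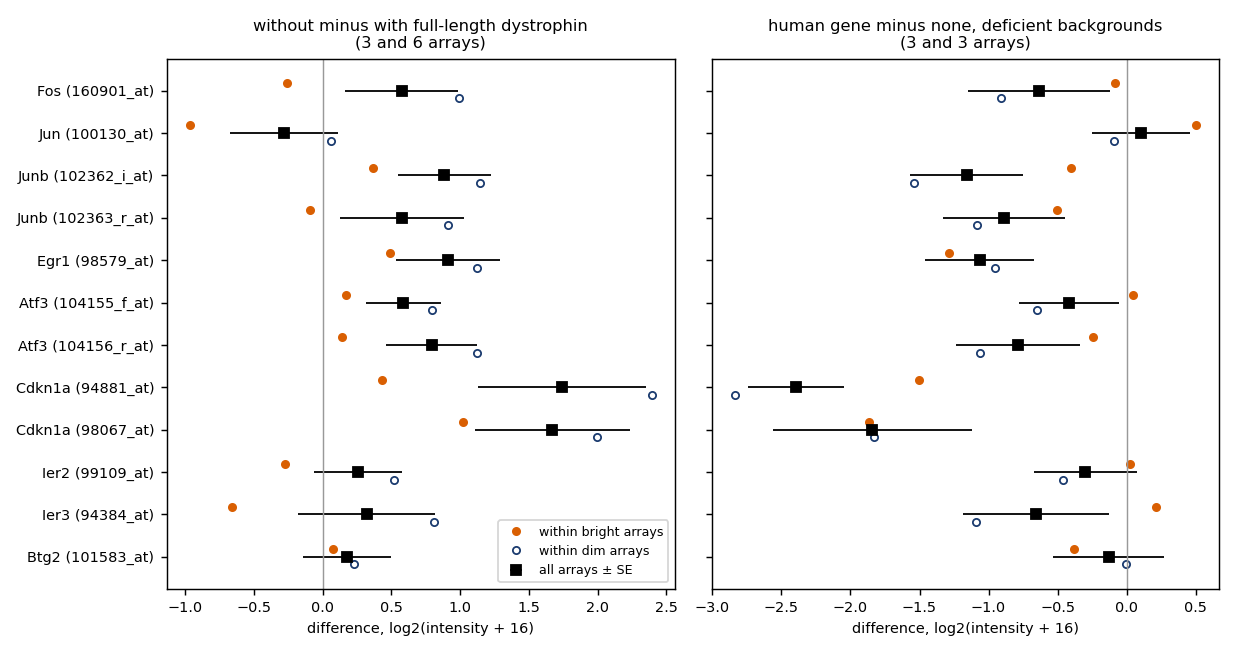
Differences in log2(intensity + 16), without minus with full-length dystrophin (left) and with minus without the human gene on deficient backgrounds (right), for the 12 probe sets tested; squares are the fitted differences over all arrays with their SE, and circles the differences within bright (filled) or dim (open) arrays. Cdkn1a lies farthest from 0 in both panels, at 1.74 and 1.67 on the left and -2.39 and -1.84 on the right.

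The human gene was compared on the deficient backgrounds, hDMD x mdx x utrn-/- and hDMD x mdx against mdx x utrn-/- and mdx, with utrophin genotype as an additive term. This comparison shares the mice without full-length dystrophin with the one above. Of the 12 probe sets, 11 were lower with the human gene and Jun higher, whereas 51.6% of all probe sets were higher. None passed limma's test, nor did any of the 7453 probe sets (0%), and 4 of the 12 stood at an unadjusted p under 0.05, against 5.49% of all. Junb 102363_r_at and Atf3 104156_r_at, both among the 11, had means below the filter's cut without the mdx x utrn-/- mouse. Neither was among the 4, and with 1 probe set per gene, 3 of 9 genes stood at that p. The count of probe sets was 1 of 12 without either utrophin-deficient mouse and 2 of 12 without hDMD x mdx 1 or with age as a covariate. It was 1 of 12 without a filter and 0 of 12 without normalisation. In the same comparison 10 of 10 fibroblast and matrix markers (median -0.98), 10 of 10 markers of regenerating muscle (-0.94), 15 of 18 macrophage markers (-1.05) and 8 of 9 neutrophil markers (-1.01) had a lower mean with the human gene. Of 5 lymphocyte markers, 5 had a higher one (0.56). Between hDMD x mdx and mdx alone, 5 neutrophil markers were lower and 4 higher (median -0.04). There 10 of 10 fibroblast and matrix markers (-1.24), 17 of 18 macrophage markers (-1.20) and 9 of 10 markers of regenerating muscle (-0.89) were lower. No marker of these lists passed, and their part in the members' differences was not tested. Lower without overlap between the 3 carriers and the 3 others were Cdkn1a 94881_at, Junb 102362_i_at and Egr1, 3 of 12, where 5.30% of all probe sets were. Cdkn1a 94881_at read 4 to 5.21 with the human gene, against 6.71 to 7.16 without it, a difference of -2.39 ± 0.35 (SE, limma adjusted p = 0.164), with -1.50 in bright and -2.84 in dim arrays. Cdkn1a 98067_at averaged 5.98 ± 1.28 and 7.82 ± 1.25 (SD, n = 3 each), a difference of -1.84 ± 0.72 (limma adjusted p = 0.841), which was -1.22 without mdx 1 and -1.19 without hDMD x mdx 1. With brightness as a block, the SE of 98067_at was 0.21 and it did not pass (limma adjusted p = 0.0771). Without normalisation 94881_at came to -1.12, and with pseudocounts of 1 and 64 to -4.45 and -1.23.

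Junb 102362_i_at lay lower in every carrier, reading 4, 4.68 and 4 in carriers against 6.24, 4.83 and 5.09, a difference of -1.16 ± 0.41 that did not pass. For Egr1 the difference was -1.06 ± 0.40, with values of 4.55 to 5.68 in carriers against 5.74 to 6.39. Junb 102363_r_at differed by -0.89 ± 0.44, Atf3 104156_r_at by -0.79 ± 0.45 and 104155_f_at by -0.42 ± 0.36. The smaller differences were those of Ier3 (-0.66 ± 0.53), Fos (-0.63 ± 0.51), Ier2 (-0.30 ± 0.37), Btg2 (-0.13 ± 0.40) and Jun (0.11 ± 0.36). Leaving out either of the utrophin-deficient mice gives the same difference, that of hDMD x mdx against mdx, because the utrophin term takes up the other. Fos then became 0.21, Atf3 104155_f_at 0.09, Ier2 0.22 and Btg2 0.32, while Junb 102362_i_at came to -0.62 and Egr1 to -0.68. Within bright arrays Jun, Atf3 104155_f_at, Ier2 and Ier3 were higher with the human gene, by 0.50, 0.05, 0.03 and 0.21. The median over the 9 genes was -0.63, against 0.02 over all probe sets.

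Between single genotypes no member passed either, and no probe set passed in any of these comparisons (0%). Unadjusted p was under 0.05 for 0 of 12 member probe sets in mdx against wild-type. It was so for 1 of 12 in hDMD x mdx against mdx. Against wild-type it was so for 0 of 12 in hDMD x mdx and 0 of 12 in hDMD. The shares of all probe sets were 1.74%, 2.88%, 0.832% and 1.82%, in that order. Between mdx and wild-type the members with the smallest p were Atf3 104155_f_at, 0.49 ± 0.32, Jun, -0.83 ± 0.56, and Cdkn1a 98067_at, 1.18 ± 0.91. Atf3 104155_f_at read 5.61 and 5.67 in mdx, against 5.28 and 5.01 in wild-type, higher without overlap as were 11.2% of all probe sets. In hDMD x mdx against mdx, Cdkn1a had the widest differences, -2.17 ± 0.89 on 94881_at and -1.80 ± 0.91 on 98067_at, and Junb 102362_i_at differed by -0.62 ± 0.37. In hDMD x mdx against wild-type, Atf3 104155_f_at differed by 0.58 ± 0.32, Junb 102362_i_at by -0.50 ± 0.37 and Cdkn1a 94881_at by -1.10 ± 0.89, the last becoming 0.38 without wild-type 1. The hDMD mouse differed from the wild-type mice by -0.97 ± 0.43 for Ier2, 1.43 ± 0.83 for Ier3 and -0.84 ± 0.69 for Jun, with its own spread taken from the other genotypes.

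Utrophin loss was compared over mdx x utrn-/- and hDMD x mdx x utrn-/- against mdx and hDMD x mdx, with the human gene as an additive term. None of the 12 member probe sets and none of the 7453 probe sets (0%) passed limma's test. Unadjusted p was under 0.05 for 0 of the 12 but for 5.90% of all probe sets. Junb 102363_r_at differed by 0.87 ± 0.47, Cdkn1a 98067_at by 0.99 ± 0.76 and Btg2 by 0.51 ± 0.43. Without the single mdx x utrn-/- mouse, Junb 102363_r_at became -0.09 and Btg2 -0.17, while Cdkn1a 98067_at was 0.94. With brightness as a block Cdkn1a 98067_at became -0.14. Whether the effect of the human gene differs by utrophin genotype was tested as an interaction over the 6 deficient-background mice, a test added after the values were seen. Fos had the smallest p of the members, with an interaction of -2.54 ± 0.60, and neither it nor any other of the 7453 probe sets passed (limma adjusted p = 0.9998). At an unadjusted p under 0.05 stood 5 of the 12 member probe sets and 309 of all probe sets (4.15%). The 5 were Fos, Junb 102363_r_at, both Atf3 probe sets and Ier2. Without the mdx x utrn-/- mouse, whose value enters the interaction, Junb 102363_r_at and Atf3 104156_r_at had means of 4.36 and 4.43. Those lie below the filter's cut of 4.46.

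The related genes of the early response were read from lists that exclude the members. Of the AP-1 partners and relatives, 12 of 16 on the array were tested, and without full-length dystrophin 4 had a higher and 8 a lower mean, with a median difference of -0.19. None passed. Jund is an AP-1 subunit present in resting cells. It was 9.41 ± 0.24 without full-length dystrophin and 8.93 ± 0.19 with it (SD, n = 3 and 6, limma adjusted p = 0.875). Its arrays did not overlap, as was so upward for 1.52% of all probe sets. The gap was narrow, between 9.205 in the lowest array without full-length dystrophin and 9.188 in the highest carrier. Atf4, a stress response factor, averaged 7.81 ± 0.36 and 8.48 ± 0.36 in the same classes. The 22 other early transcription factors tested had a median of 0.13, with 13 higher and 9 lower, and the 27 other early and stress genes a median of -0.0015, with 12 higher and 15 lower. Id2, an inhibitor of myogenic factors, averaged 5.56 ± 0.36 without full-length dystrophin and 4.64 ± 0.57 with it, and did not pass (limma adjusted p = 0.778).

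The 28 growth arrest and p53 target genes tested beside Cdkn1a and Btg2 had a median of 0.01 without full-length dystrophin, with 16 higher and 12 lower and none passing. Ccng1, cyclin G1 and a p53 target, averaged 6.80 ± 0.99 in mice without full-length dystrophin and 7.71 ± 0.41 in carriers, the opposite direction to Cdkn1a. Cdkn1c, another cyclin-dependent kinase inhibitor, was lower with the human gene on deficient backgrounds, 7.01 ± 0.10 against 7.91 ± 0.40 (SD, n = 3 each), a difference of -0.90 that did not pass (limma adjusted p = 0.673). Of 19 genes that signal to the early response, 4 were higher and 15 lower without full-length dystrophin, with a median of -0.22, and with the human gene on deficient backgrounds 13 were higher and 6 lower, with a median of 0.36. Map2k6, a p38 kinase activator, averaged 5.07 ± 0.27 without full-length dystrophin and 5.72 ± 0.33 with it, and Jak2, a cytokine receptor kinase, 5.58 ± 0.18 in hDMD x mdx and 4.50 ± 0.32 in mdx (SD, n = 2 each). Neither passed, nor did any other gene of the early response, signalling, growth arrest and Myc lists in any of the 7 comparisons.

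The 21 Myc partners and targets tested had a median of 0.11 without full-length dystrophin, with 14 higher and 7 lower, while Myc itself was too dim to test. Odc1, the polyamine enzyme and a Myc target, had the smallest p of the genes of these lists, 7.19 ± 0.32 with the human gene on deficient backgrounds and 5.75 ± 0.13 without it (SD, n = 3 each), a difference of 1.44 that did not pass (limma adjusted p = 0.364). Fbl, a nucleolar methyltransferase, went the other way in the same comparison, 5.60 ± 0.35 against 6.38 ± 0.15. Nfkbia, an inhibitor of NF-kB, averaged 6.41 ± 0.22 in hDMD x mdx and 7.49 ± 0.39 in wild-type mice, and Nfil3, a bZIP repressor, 6.58 ± 0.59 in hDMD x mdx and 5.40 ± 0.30 in mdx (SD, n = 2 each). Neither of these passed.

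Brightness differed between the 9 arrays, and each array's scaling is common to all its genes. Over these arrays Fos correlated with Ier2 (r = 0.85), Btg2 (0.85), Atf3 (0.82), Egr1 (0.80) and Junb (0.72). Fos and each of these genes were highest in the mdx x utrn-/- mouse, so that 1 array weighs on every one of these values. Values of r without it were not computed. Jun and Cdkn1a 98067_at had r = -0.39, and Ier2 and Ier3 had r = -0.23. Given as a description, the 3 genes most correlated with each member over the 9 arrays were Rasl11b, Psmd13 and Slc6a12 for Fos (r = 0.93, 0.93 and 0.90), Rnf8, Gadd45b and Smad7 for Jun (0.95, 0.92 and 0.92), and Ahcy, Rpl41 and Gng10 for Junb (0.96, 0.94 and 0.92). For Egr1 they were Gpc4, Mmp11 and Rpl39 (r = 0.90, 0.88 and 0.87), for Atf3 Cbfa2t3, Nnt and Ankrd33b (0.92, 0.90 and 0.90), and for Cdkn1a 98067_at Txn1, Ilk and Myh8, a perinatal myosin heavy chain (0.93, 0.90 and 0.90). For Ier2 they were Ybx1, Nop58 and Rgcc (r = 0.91, 0.91 and 0.90), for Ier3 St6galnac3, Slc3a1 and Tnfrsf17 (0.90, 0.89 and 0.89), and for Btg2 Capza1, Sox17 and Socs3 (0.91, 0.90 and 0.90).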

How the data were processed

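The authors deposited 1 table of probe set intensities, linear and with values at or below 0 for 19.4% to 29.9% of probe sets per array. Per the labels' protocols, total RNA from frozen muscle was extracted with Trizol and RNeasy columns and made into biotinylated cRNA with SuperscriptII, T7-dT24 primers and an Enzo kit. Which expression measure and scaling produced them is not stated. Quantile normalisation over the 9 arrays came first, negative values were then set to 0, 16 was added and log2 was taken. Probe sets with a mean above the 40th percentile were kept, 7453 of 12422.

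Comparisons were fitted with limma 3.58.1 (lmFit, contrasts.fit, eBayes) in R 4.3.3, two-sided, adjusted by Benjamini-Hochberg over 7453 probe sets at 0.05, and tested on simulated data. Genotype contrasts used all 9 arrays with 3 residual degrees of freedom, from the genotypes with 2 mice; the class contrast had 7. Probe sets were named from the platform's annotation (symbols brought up to date by Entrez identifier): 10833 carried 1 symbol, 396 several and 1193 none. Every member probe set is named, as are listed genes that passed or, where none passed, the 2 per list with the smallest p, and the 3 genes most correlated with each member. The members and lists were chosen with earlier results of these data known. The mice are separate animals, their number limits the precision, and p-values measure only the spread between these arrays. In each genotype with 2 mice, 1 array was bright and 1 dim. The spread within a genotype therefore holds the difference in brightness as well as that between mice. Alternatives were other normalisations, pseudocounts and filters, a trend in eBayes, other sets of arrays, age and brightness terms, and leaving out each mouse.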

Additional observations from a re-analysis of the deposited data

Results flagged for a closer look

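Within the 6 arrays carrying full-length dystrophin, Cdkn1a 98067_at read 4.51 in hDMD x mdx 1, a bright array. The gap to the next array was 0.732 of the whole range. Among 24 such groups examined this was 1, and chance gives about 1 in 20.

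In 3 of the 12 member probe sets the human gene went downward without utrophin and upward with it, without overlap between the mice compared, as in 5.58% of all 7453 probe sets. Jun differed by -0.72 in hDMD x mdx x utrn-/- minus mdx x utrn-/- and by 0.52 in hDMD x mdx minus mdx. The same differences were -1.42 and 0.086 for Atf3 104155_f_at and -1.33 and 0.22 for Ier2.

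Seen from the other side, utrophin loss went upward without the human gene (mdx x utrn-/- minus mdx) and downward with it (hDMD x mdx x utrn-/- minus hDMD x mdx) in 6 of the 12, against 9.53% of all probe sets. Both patterns rest on the same 2 single mice. The differences were 1.74 and -0.80 for Fos, 0.31 and -0.92 for Jun, 0.57 and -0.59 for Egr1, 0.90 and -0.61 for Atf3 104155_f_at, 1.42 and -0.52 for Atf3 104156_r_at, and 0.81 and -0.74 for Ier2. Each utrophin-deficient genotype is 1 mouse, and the interaction did not pass for any of the 7453 probe sets in limma (adjusted p = 0.9998 for each member).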

How the results depend on the processing

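Over the 7 comparisons, 1469 differences of members were recomputed under alternatives. Of these, 112 changed sign, 58 of them on leaving out a mouse, and 1 passed, Cdkn1a 98067_at between the dystrophin classes on the 6 dim arrays, which made the count of members passing 1, in a setting where 0.107% of all probe sets passed. The count of all probe sets passing between the classes, 9, became 0 without normalisation and with 1 mean per genotype, 1 with a pseudocount of 1 and 2 without a filter, and ran from 2 to 18 on leaving out a mouse. For the human gene on deficient backgrounds it was 1 with an intensity trend in eBayes and 4 with brightness as a block, against 0. The cause was not tested in any of these.

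Signs turned as follows. Without normalisation, the class difference became -0.10 for Ier2 and -0.00063 for Ier3, and the human gene difference 0.10 for Atf3 104155_f_at, 0.19 for Ier2 and 0.049 for Btg2. In the same setting Junb 102362_i_at became 0.0025 in hDMD x mdx minus mdx and 0.26 in hDMD x mdx minus wild-type, and utrophin loss gave -0.012 for Junb 102363_r_at, -0.42 for Cdkn1a 98067_at and -1.27 for Btg2. With age as a covariate the human gene gave 0.078 for Btg2, and utrophin loss -0.20 for Cdkn1a 98067_at and -0.027 for Btg2. On the dim arrays Jun became 0.064 between the classes and -0.095 for the human gene, and Cdkn1a 98067_at -0.14 for utrophin loss, also -0.14 with brightness as a block. On leaving out each mouse, class differences ran from -0.0057 to 0.91 for Fos, -0.031 to 1.05 for Junb 102363_r_at, -0.014 to 0.46 for Ier2, -0.22 to 0.54 for Btg2 and -0.11 to 0.96 for Ier3. Human gene differences ran from -0.99 to 0.21 for Fos, -0.58 to 0.086 for Atf3 104155_f_at, -0.52 to 0.22 for Ier2, -0.47 to 0.32 for Btg2 and -0.14 to 0.52 for Jun. Cdkn1a 94881_at ran from -2.58 to 0.38 in hDMD x mdx minus wild-type, and utrophin loss from -0.086 to 1.82 for Junb 102363_r_at and -0.17 to 1.18 for Btg2. The median of the hDMD x mdx x utrn-/- minus mdx x utrn-/- differences, an addition made after seeing the data, was -0.87 without normalisation, -2.63 with a pseudocount of 1 and -0.87 with 64.

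No paired analysis was possible because the mice are separate animals and the labels name no pairing between them. Dim probe sets limit the precision: 3.12% of the values tested were at the floor, where no order can be read. Contrasts of single genotypes on the dim arrays gave values without a test, and a fit to the compared arrays alone was not run where fewer than 2 residual degrees of freedom remained.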
